A study of Mus musculus with 23 samples.

Results

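The genes described here carry out fatty acid oxidation, respond to the nuclear receptor PPAR alpha, or make and use ketone bodies. They were chosen by name, with earlier results of these data known: 32 genes of the 55416 gene rows in the count files. PPAR alpha is a receptor that binds fatty acids and, paired with RXR, switches on genes whose control regions hold a direct repeat of AGGTCA spaced by 1 base. Its targets bring fatty acids into mitochondria and peroxisomes, shorten them to acetyl-CoA, and in liver and in the suckling intestine turn acetyl-CoA into ketone bodies. In the small intestine of adult animals these genes are carried mainly by enterocytes, the absorptive cells, which take up dietary fat and burn part of it.

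RNA-seq was done on scrapings of the proximal small intestine from 23 mice of the strain C57BL/6JRccHsd, all labelled female. The galactose group (12 mice) ate a pelleted diet with 16% of its energy as galactose and 16% as glucose, and the glucose group (11 mice) a diet with 32% as glucose and otherwise the same. Feeding ran for 3 weeks from day 21 of age, and tissue was taken on day 42. The comparison asks how replacing part of the dietary glucose with galactose in young mice relates to gene expression in the proximal gut. Each library came from a separate mouse, and a scraping mixes cell types, so fewer cells of a type and less RNA per cell cannot be told apart.

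Libraries held 15382583 to 17174721 counts in genes. Levels are given as CPM, counts scaled to one fixed library total with a correction for composition, and differences as log2 of galactose over glucose ± SE. Galactose replicate 12 went against its label as female: it held 225 counts of 4 Y-linked genes and 4 of Xist, where the other libraries held at most 1 and from 778 to 2351. Enterocyte markers were high throughout, with a summed level of 10 genes of 67193 to 90014 CPM on galactose and 62069 to 98112 on glucose. Adipoq, Plin1 and Retn, which define fat cells, were at 0 in 10, 10 and 12 libraries, and all 3 were highest in glucose replicate 1. The whole list of 8 adipocyte markers summed to 278.0 to 362.6 CPM on galactose and 267.4 to 368.6 on glucose, most of it from Lipe and Cidec. Hepatocyte markers summed to at most 6.47 CPM. T cell markers summed to 45.4 to 106 CPM on galactose and 20.6 to 91.2 on glucose, and pancreatic acinar markers to at most 7.23 CPM except in galactose replicate 2, at 569. All 7 T cell markers were higher on galactose (median log2 difference 0.56), as were all 4 tested B and plasma cell markers (0.54). All 6 smooth muscle markers were lower (-0.23). Of all genes 49.5% were higher, and enterocyte and macrophage markers were mixed. None of these markers passed the test described below. What other cells contributed to the values below was not tested.

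No gene of the module differed between the diets by the test, and most were held within a narrow range. Of the 32 genes 31 had enough counts to be tested, and 0 of 31 passed an adjusted p of 0.05 (edgeR's quasi-likelihood test, Benjamini-Hochberg over 13405 genes), where the share of all genes called was 0%. The smallest adjusted p by this test was 0.205, for Vnn1. At an unadjusted p under 0.05 there were 6 of the 31, or 19.4%, against 14.4% of all genes tested. The 3 lower ones on galactose were Cpt1a, Acot1 and Vnn1, where 5.72% of all genes were lower at this level, and the 3 higher ones Acadl, Decr1 and Bdh1, against 8.63%. Signs were mixed, with 17 genes higher and 14 lower on galactose and a median log2 difference of 0.01. Of all genes 49.5% were higher, with a median of -0.0017. Holding each library's slope on transcript length turned this split to 13 higher and 18 lower. That slope comes from the expression values themselves. It ran lower on galactose (-0.123 to 0.0795) than on glucose (-0.0600 to 0.0939), with overlap. What holding it takes out, here and below, therefore cannot be told apart from diet. The median size of a difference, regardless of sign, was 0.06 in the module and 0.10 over all genes. In all 31 genes the values of the diets overlapped, as they did in each of the 13405 genes.

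The precision of the comparison differed between genes. For 22 of the 31 the 95% interval of the difference lay within 0.8- to 1.25-fold. In simulated counts with the libraries' own sizes and spread, the test found 38.8% of the genes given a 1.25-fold change. It found 74.6% at 1.5-fold and 93.9% at 2-fold. These shares are over 200 of the 13405 genes, not over the module. Each gene was drawn on its own, so the simulation held no variation shared by genes of a library, and recovery with such variation was not tested. With the measured counts the same test called no gene. Me1, a gene outside the module with a log2 difference of -0.71 ± 0.17, had an edgeR adjusted p of 0.135. Recovery of changes in the module's own genes was not tested. DESeq2 called 86 of 11326 genes, or 0.759%, and limma-voom with quality weights for libraries called 167 of 13405, or 1.25%. Without galactose replicate 7 edgeR called 219 genes, or 1.64%, while leaving out any other single library gave no calls. Leaving out galactose replicates 7 and 12 together gave 321 calls. Neither limma-voom without weights nor any other edgeR setting with all libraries called a gene. None of these calls was a gene of the module. Over all 36 alternatives tried the lowest adjusted p of a member was 0.0967, for Bdh1 by edgeR without galactose replicates 7 and 12.

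**Figure D1:**
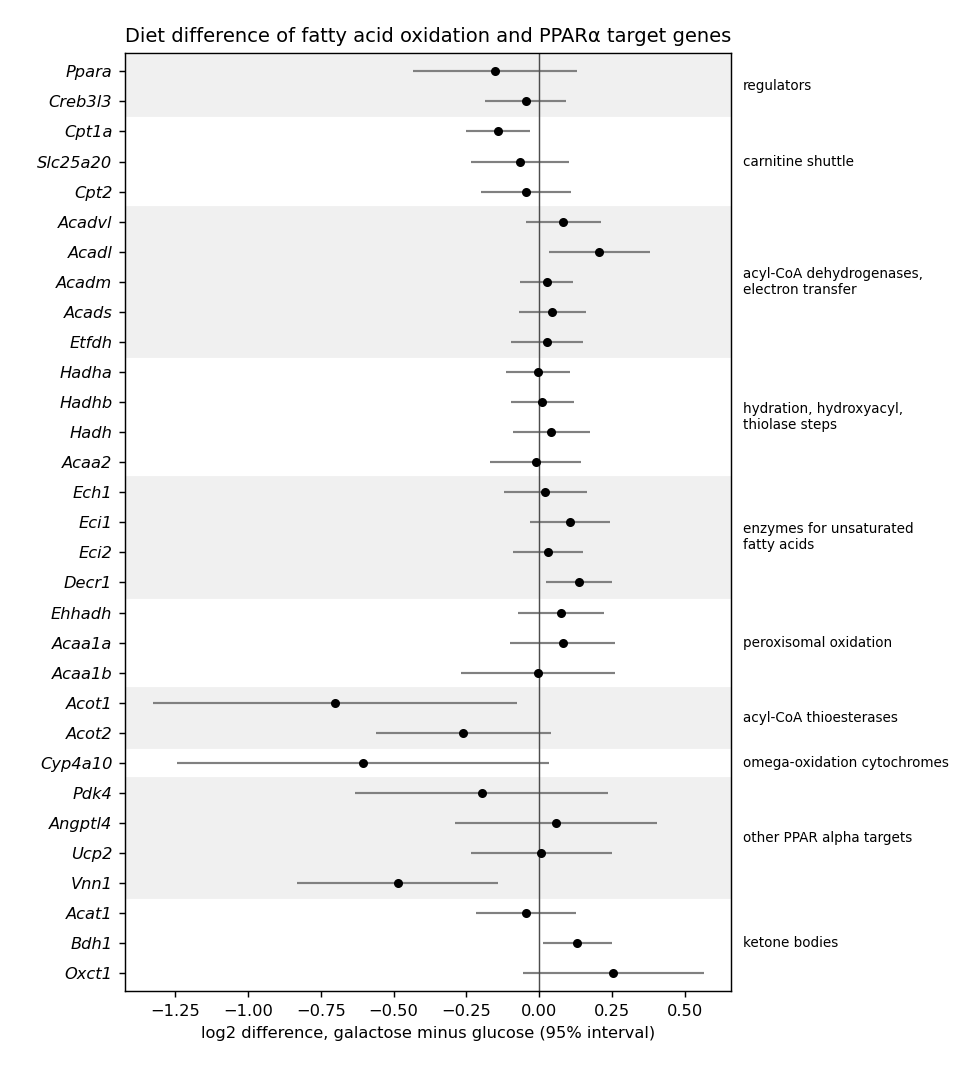
Log2 difference in expression, galactose minus glucose (x axis), for the 31 tested genes (y axis) ordered by role, with points for the edgeR estimates and bars for 95% intervals. Most intervals are narrow and cross 0, and the wide ones belong to Acot1, Cyp4a10, Pdk4, Angptl4 and Vnn1.

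Among the regulators, Ppara itself was scarce. Ppara (ENSMUSG00000022383) ranged from 11.1 CPM in galactose replicate 5 to 28.4 in galactose replicate 7, with a median of 15.1. On glucose it ranged from 11.1 to 24.2 CPM with a median of 18.1, so that the groups overlapped over most of their range. The log2 difference was -0.15 ± 0.14 (adjusted p = 0.641 by edgeR), and -0.26 without galactose replicate 7. It turned to 0.15 with the length slope of the libraries held, and over the 23 mice Ppara followed that slope (Pearson r = 0.70, permutation p = 0.00048, adjusted p = 0.0214 over 93 relations). By rank the relation was weaker (Spearman rho = 0.51, permutation p = 0.0152, adjusted p = 0.177), and r was 0.58 without the 2 libraries at the ends of the slope. The slope is fitted to the values of all tested genes with a known length, and how many of them follow it was not counted. This relation, and that of Eci1 below, were examined after the values of the mice had been seen.

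Per kilobase of transcript, the scale on which genes can be compared, Ppara stood at 4.69 ± 1.34 CPM on galactose (SD, n = 12) and 5.21 ± 1.17 on glucose (n = 11). Ppard, the related receptor PPAR delta, stood at 109 ± 17.2 and 97.8 ± 10.7 CPM per kilobase. Pparg, known for fat cell development, was at 10.1 ± 1.81 and 10.1 ± 2.22. The level of Ppard exceeded that of Ppara in every library, its lowest value being 74.4 CPM per kilobase and the highest of Ppara 8.31.

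Creb3l3 (ENSMUSG00000035041) encodes CREBH, a membrane-bound transcription factor of liver and gut that works with PPAR alpha. It was the most abundant gene of the module per kilobase, at 356 ± 38.9 CPM on galactose and 368 ± 40.0 on glucose. In CPM it spanned 659 to 957 around a median of 837 on galactose, and 682 to 1005 around 852 on glucose. The diets overlapped almost fully and the log2 difference was -0.05 ± 0.07 (edgeR adjusted p = 0.792).

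The promoters were searched on both strands for the AGGTCA repeat, written as AGGTCA, any base, AGGTCA, with 12 bases compared. RefSeq sequences of the build GRCm38.p6, from 250 bases before to 50 after a listed start, were held for 25 of the 32 genes, with 27 promoters in all. Acaa2, Acat1, Angptl4, Cyp4a10, Cyp4a14, Decr1 and Vnn1 had no sequence and were not searched. Within 2 mismatches the repeat was found in 2 of 27 member promoters (7.41%) and in 1268 of 32851 promoters of all genes (3.86%). They are shown because they are the closest matches among the members searched, with the matched repeat units in capitals, 5′ to 3′ on the gene's strand.
Creb3l3, GRCm38.p6 chr10:81092764-81092824, minus strand: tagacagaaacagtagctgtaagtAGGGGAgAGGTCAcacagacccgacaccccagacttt
Slc25a20, GRCm38.p6 chr9:108662137-108662159, plus strand: aatgtAGGTGAaAGGTCGgcgga
Counting from 1 at the 5′ end of the repeat, the Creb3l3 match differs by T4G and C5G and begins 209 bases before the start. The Slc25a20 match differs by C5G and A13G and begins 6 bases after the start. At 3 mismatches the shares were 22.2% of member promoters and 24.6% of all, and a single AGGTCA on either strand was in 14.8% and 16.3%. A match is a match of letters only, and binding was not measured.

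The carnitine shuttle carries long acyl chains across the mitochondrial membranes. Its 3 genes all had negative differences, between -0.14 and -0.04, and none passed. Cpt1a (ENSMUSG00000024900), whose product makes acylcarnitine at the outer membrane and sets the pace of oxidation, spanned 105 to 141 CPM around a median of 121 on galactose. On glucose it spanned 118 to 148 CPM around 137. The ranges overlapped, but 10 of 12 galactose mice lay below the glucose median, with means of 122 ± 11.3 against 134 ± 9.60 CPM (SD). The log2 difference was -0.14 ± 0.05 (p = 0.0145, edgeR adjusted p = 0.236), with a 95% interval of 0.841- to 0.979-fold. Cpt1b, the muscle form, had at most 7 counts in a library. Slc25a20, the carnitine-acylcarnitine exchanger of the inner membrane, had medians of 67.4 and 74.0 CPM on galactose and glucose, and a log2 difference of -0.06 ± 0.08. Cpt2, which rebuilds acyl-CoA in the matrix, had medians of 146 and 159 CPM and a log2 difference of -0.04 ± 0.08.

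The acyl-CoA dehydrogenases begin each round of oxidation, and Etfdh passes their electrons to the respiratory chain. All 5 had positive differences, from 0.03 to 0.21, and again none passed. Acadl (ENSMUSG00000026003), the long-chain enzyme, spanned 163 to 263 CPM around a median of 194 on galactose and 128 to 224 around 174 on glucose. Of the galactose mice 11 of 12 lay above the glucose median, although the ranges overlapped widely. Its means were 205 ± 29.5 and 177 ± 26.97 CPM, and the log2 difference was 0.21 ± 0.08 (p = 0.0216, edgeR adjusted p = 0.260). Acadvl, for very long chains, had medians of 237 and 223 CPM with a log2 difference of 0.08 ± 0.06, and Acads, for short chains, 68.8 and 67.8 CPM with 0.05 ± 0.06.

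Acadm, the medium-chain enzyme, was the steadiest gene of the module. It spanned only 126 to 166 CPM on galactose and 131 to 151 CPM on glucose. Its log2 difference was 0.03 ± 0.04, with a 95% interval of 0.956- to 1.08-fold. Etfdh had medians of 134 and 129 CPM and a log2 difference of 0.03 ± 0.06.

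Hydration, the hydroxyacyl step and thiolysis complete a round. Hadha and Hadhb encode the alpha and beta subunits of the mitochondrial trifunctional protein, which does all 3 steps on long chains. Hadha spanned 420 to 548 CPM on galactose and 416 to 519 on glucose, with medians of 467 and 479. Hadhb spanned 124 to 166 and 126 to 159 CPM, with medians of 146 and 148. Neither set of values separated the diets. Their log2 differences were -0.004 ± 0.05 and 0.01 ± 0.05, with 95% intervals of 0.924- to 1.08-fold and 0.935- to 1.09-fold, and the signs of both depended on which library was left out.

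The starts of Hadha and Hadhb listed by RefSeq lie 273 bases apart on opposite strands, so the genes share an upstream region. It is shown because the subunit genes start on either side of it, read on the strand of Hadhb with a GC box (GGGCGG, searched on both strands) in capitals.
Hadha and Hadhb, GRCm38.p6 chr5:30155003-30155230, plus strand: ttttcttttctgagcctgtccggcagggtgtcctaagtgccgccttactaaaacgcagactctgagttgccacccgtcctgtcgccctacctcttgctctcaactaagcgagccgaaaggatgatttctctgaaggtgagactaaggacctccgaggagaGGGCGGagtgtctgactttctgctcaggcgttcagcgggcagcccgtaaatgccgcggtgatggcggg
A GC box was found in 18 of 27 member promoters (66.7%) and in 35.7% of all. The box shown lies in the windows of both Hadha and Hadhb and so counts for both. The promoters of all genes include genes too scarce here to be tested. The CCAAT box, absent from this stretch on both strands, was in 11 of 27 (40.7%) and 37.4%. Over the 23 mice the levels of the subunit genes were related with r = 0.47 (permutation p = 0.0264, adjusted p = 0.127) and Spearman rho = 0.51 (permutation p = 0.0173, adjusted p = 0.101). That missed the threshold, and r was 0.46 without the 2 libraries farthest from the median. Within the diets r was 0.74 on galactose and 0.05 on glucose, and the difference between these was not tested.

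Hadh, the hydroxyacyl-CoA dehydrogenase for shorter chains, was second in level at 347 ± 40.8 CPM per kilobase on galactose and 338 ± 26.0 on glucose. Its medians were 1319 and 1269 CPM and its log2 difference 0.04 ± 0.06. Acaa2, the mitochondrial thiolase, had medians of 199 and 197 CPM and a log2 difference of -0.01 ± 0.08.

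Unsaturated fatty acids need extra enzymes to move or reduce double bonds. The 4 genes for these had differences of 0.02 to 0.14, all positive and none passing, and for Ech1, Eci1 and Eci2 the sign turned with the length slope held. Besides Ppara, Eci1 was the other member called as related to that slope over mice, in the opposite direction (r = -0.68, permutation p = 0.00069, adjusted p = 0.0214; rho = -0.69, permutation p = 0.00071, adjusted p = 0.0660). Without the 2 libraries at the ends of the slope its r was -0.63 (permutation p = 0.00384). Decr1 (ENSMUSG00000028223), the dienoyl-CoA reductase, spanned 130 to 168 CPM around a median of 158 on galactose and 121 to 169 around 138 on glucose. The highest mouse of all was on glucose, yet 10 of 12 galactose mice lay above the glucose median. Means were 153 ± 12.1 and 139 ± 13.3 CPM, and the log2 difference was 0.14 ± 0.06 (p = 0.0210, edgeR adjusted p = 0.258). It was 0.07 with the length slope held. Ech1, a dienoyl-CoA isomerase, had medians of 173 and 161 CPM, and the enoyl-CoA isomerases Eci1 and Eci2 had 62.5 and 57.1 CPM and 47.2 and 45.4 CPM.

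In peroxisomes, Ehhadh hydrates and oxidises shortened chains and the thiolases Acaa1a and Acaa1b split them. Ehhadh had medians of 210 and 206 CPM and a log2 difference of 0.08 ± 0.07, and Acaa1a had 177 and 167 CPM and 0.08 ± 0.09. Acaa1b spanned 33.4 to 62.0 CPM on galactose and 27.2 to 65.6 on glucose with the same median, 38.4 CPM, in both. The log2 difference was -0.004 ± 0.13. The longest coding transcripts of the thiolase pair were 93.0% identical over 1636 bases, so the division of reads between them is uncertain.

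The cytosolic and mitochondrial thioesterases Acot1 and Acot2 release free fatty acids from acyl-CoA and are strongly induced by PPAR alpha in liver. Acot1 (ENSMUSG00000072949) was low, with 16 to 208 counts in a library. It spanned 1.01 to 6.80 CPM on galactose around a median of 2.55, and 2.18 to 12.9 on glucose around 4.26. Galactose replicates 3 and 9 and glucose replicates 7 and 11 stood above the rest of their diets, and 10 of 12 galactose mice lay below the glucose median. The log2 difference was -0.70 ± 0.30 (p = 0.0291, edgeR adjusted p = 0.294), a 95% interval of 0.398- to 0.948-fold. Without glucose replicate 11 it was -0.46 (p = 0.115, adjusted p = 0.512). Acot2 spanned 4.23 to 9.77 and 4.52 to 10.7 CPM, with medians of 5.93 and 7.33 and a log2 difference of -0.26 ± 0.15 (edgeR adjusted p = 0.423). Transcripts of this pair were 81.9% identical over 1999 bases.

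The cytochromes Cyp4a10 and Cyp4a14 oxidise the far end of fatty acids and are classical markers of PPAR alpha activity in mouse liver. Cyp4a14 was all but absent, with 0 counts in 22 libraries and 3 in glucose replicate 10, and was not tested. Cyp4a10 (ENSMUSG00000066072) had 6 to 190 counts in a library. It spanned 0.377 to 5.89 CPM on galactose around a median of 2.47, and 1.62 to 11.8 on glucose around 3.20. The lowest mouse was galactose replicate 1 and the highest glucose replicate 11, whose 11.8 CPM compare with 5.80 for the next mouse of its diet. The log2 difference was -0.60 ± 0.31 (p = 0.0621, edgeR adjusted p = 0.376), and -0.32 without glucose replicate 11 (adjusted p = 0.650). Cyp4a10 shares 95.7% of bases with Cyp4a31 and 97.2% with Cyp4a32 over aligned transcripts, so part of its reads may be assigned to them or discarded.

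Vnn1 (ENSMUSG00000037440), the pantetheinase that recycles a coenzyme A precursor, had the smallest p of the module. It spanned 63.3 to 157 CPM on galactose around a median of 101, and 74.7 to 227 on glucose around 129. Although the ranges overlapped, 11 of 12 galactose mice lay below the glucose median. Means were 101 ± 28.9 and 142 ± 47.1 CPM, and the log2 difference was -0.49 ± 0.17 (p = 0.00741, edgeR adjusted p = 0.205). With the length slope held it was -0.32 ± 0.20 (p = 0.116, edgeR adjusted p = 0.816).

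Vnn1 was also the 1 member whose level was called as related to position along the gut, measured as the mean log2 CPM of ileal less duodenal and jejunal marker genes. Only 4 of the 6 ileal markers entered this score. Slc10a2 and Fgf15 among them were scarce, with medians of 0.81 and 0.99 CPM, as was Cybrd1 on the other side (1.94 CPM). Vnn1 was highest in galactose replicate 9 and glucose replicate 11, and its lowest glucose mouse, replicate 8, had the lowest position score of its diet. Over the 23 mice, with diet means taken out, r was 0.71 (permutation p = 0.00022, adjusted p = 0.0205) and Spearman rho 0.63 (permutation p = 0.00208, adjusted p = 0.0928), among 93 relations of 31 genes with 3 measures of the libraries. Without the 2 libraries at the ends of the score r was 0.55 (permutation p = 0.0118). Acadl and Oxct1 ran the other way, with r = -0.58 and -0.55 (permutation p = 0.00504 and 0.00552). Both missed the threshold, at an adjusted p of 0.0908. Their rho values were -0.59 and -0.54, and their r without those 2 libraries -0.64 and -0.53. Holding the score brought their log2 differences from 0.21 to 0.15 and from 0.26 to 0.16. With the score held, the diet difference of Vnn1 was -0.30 ± 0.13 (edgeR adjusted p = 0.332). All 93 relations were examined after the values of the mice had been seen. How many of all genes relate to the score was not counted.

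The other PPAR alpha targets showed no common direction. Pdk4 encodes a kinase that holds back the conversion of pyruvate to acetyl-CoA and so spares glucose. It spanned 12.2 to 53.2 CPM on galactose around a median of 26.7, and 14.03 to 48.1 on glucose around 32.1. The highest galactose mouse was replicate 12, the library that went against its label. The log2 difference was -0.20 ± 0.21 (edgeR adjusted p = 0.706) and -0.33 without that library. Angptl4, a secreted inhibitor of lipoprotein lipase, spanned 16.3 to 50.3 and 17.7 to 38.5 CPM, with medians of 29.02 and 31.2 and a log2 difference of 0.06 ± 0.17. Ucp2, an inner-membrane carrier, was among the most abundant members at 308 ± 58.8 and 306 ± 69.1 CPM per kilobase, with a log2 difference of 0.007 ± 0.12.

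Of the ketone body enzymes, Bdh1 interconverts acetoacetate and hydroxybutyrate. Bdh1 (ENSMUSG00000046598) spanned 140 to 199 CPM on galactose around a median of 176 and 140 to 178 on glucose around 159, with 10 of 12 galactose mice above the glucose median. Means were 174 ± 17.7 and 159 ± 12.5 CPM, and the log2 difference was 0.13 ± 0.06 (p = 0.0321, edgeR adjusted p = 0.304), or 0.04 with the length slope held. Acat1, the mitochondrial acetoacetyl-CoA thiolase, had medians of 245 and 244 CPM and a log2 difference of -0.04 ± 0.08. Oxct1, which activates acetoacetate for burning outside the liver, reached 130 CPM in galactose replicate 5 and was lowest, at 37.97, in glucose replicate 11. Its medians were 71.0 and 75.6 CPM, in the order opposite to its log2 difference of 0.26 ± 0.15 (edgeR adjusted p = 0.439).

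**Figure D2:**
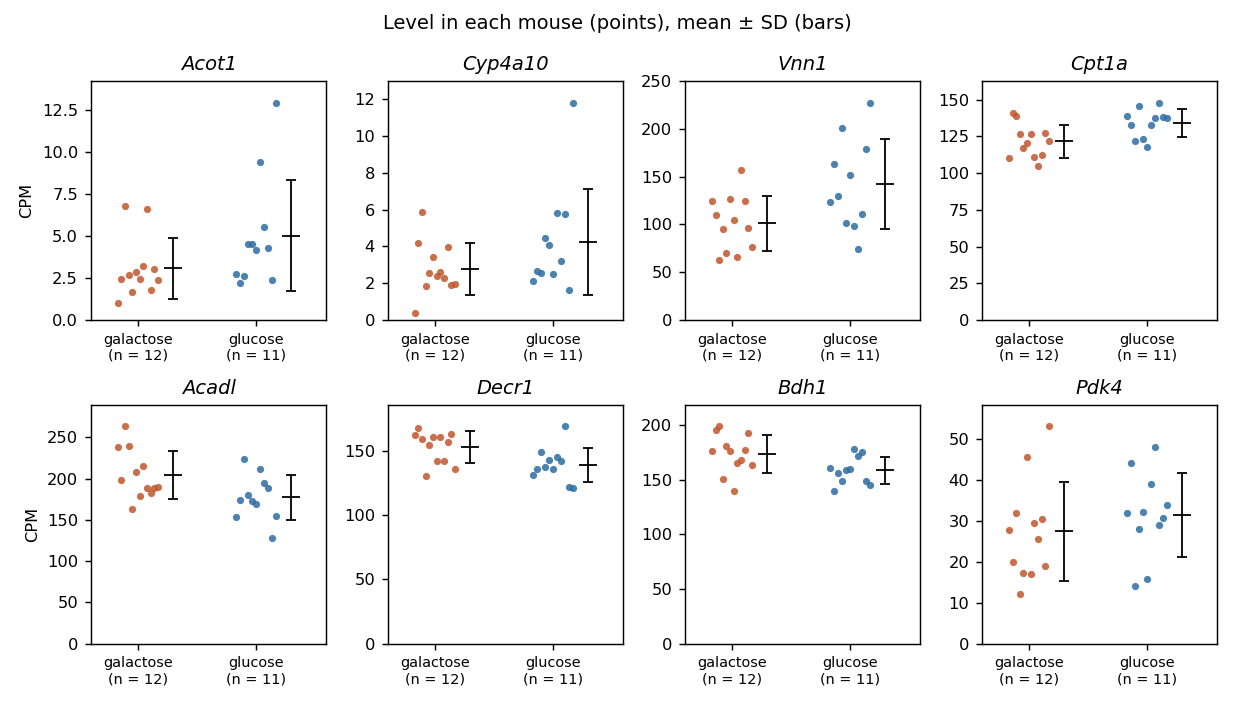
CPM (y axis, from 0) in each mouse for 8 genes by diet, galactose (n = 12) and glucose (n = 11), with points for mice and bars for mean ± SD. The diets overlap in all 8 genes, and glucose replicate 11 is the top point for Acot1 (12.9 CPM), Cyp4a10 (11.8 CPM) and Vnn1 (227 CPM).

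Genes of the same pathways outside the module gave 0 calls by edgeR as well. Of the 19 other tested genes of mitochondrial oxidation 12 were higher and 7 lower on galactose, with a median of 0.07, and 7 had an unadjusted p under 0.05, all 7 higher, where 8.63% of all genes were higher at this level. They were led by Echs1, the short-chain enoyl-CoA hydratase, at 0.23 ± 0.06 (adjusted p = 0.138), then Etfb and Etfa, the electron carriers upstream of Etfdh, at 0.28 ± 0.10 and 0.13 ± 0.05. With the length slope held these came to 0.14, 0.15 and 0.07, and Hsd17b10, another of the 7, named after its values were seen, turned from 0.17 to -0.023. Among 26 peroxisomal genes 14 were higher and 12 lower, led by Pex16 at 0.27 ± 0.07 and Acot12 at -0.35 ± 0.10, with catalase (Cat) at -0.25 ± 0.09. Of 6 other carnitine genes 5 were lower, led by the carnitine transporter Slc22a5 at -0.21 ± 0.08 (edgeR adjusted p = 0.241). Holding the length slope brought Pex16 to 0.15, Acot12 to -0.15 and Slc22a5 to -0.09.

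For uptake, activation and storage of fatty acids 10 genes were higher and 11 lower. Cd36, a fatty acid receptor of the brush border, was at 44.1 ± 13.6 CPM on galactose and 65.4 ± 18.5 on glucose, a log2 difference of -0.57 ± 0.16 (edgeR adjusted p = 0.139). Acsl1 and Fabp1 were at -0.21 ± 0.08 and 0.21 ± 0.09, the latter at 0.13 with the length slope held. Of 18 further PPAR alpha targets 9 were higher and 9 lower, led by malic enzyme Me1 at -0.71 ± 0.17 (edgeR adjusted p = 0.135), with Pdk3 at -0.21 ± 0.07 and Cyp4f14 at 0.19 ± 0.07. Of 19 PPAR partners and coregulators 6 were higher and 13 lower, led by Esrra at 0.20 ± 0.05 (edgeR adjusted p = 0.138), Ncor1 at -0.25 ± 0.09 and Ep300 at -0.20 ± 0.09. Transcripts of Ncor1 and Ep300 are long (9037 and 9566 bases), and with the length slope held Ncor1 came to -0.06 and Ep300 turned to 0.01.

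Of these further genes, those named next passed under some alternatives, while no gene of the module did. By DESeq2 Me1 (adjusted p = 0.0181), Pex16 (0.0322), Esrra (0.0322), Echs1 (0.0440) and Cd36 (0.0466) passed. By edgeR without galactose replicate 7 all 5 passed as well, with adjusted p of 0.0400 for Me1, 0.0339 for Pex16, 0.0436 for Esrra, 0.0360 for Echs1 and 0.0425 for Cd36. Among fits leaving out a single library, that was the only one in which any gene passed. By edgeR with the length slope held none of the 5 passed, with adjusted p of 0.736 for Me1 and Esrra, 0.738 for Pex16 and Cd36, and 0.748 for Echs1.

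The members differed widely in how much they varied between mice of the same diet. The pooled SD of log2 CPM within a diet had a median of 0.18 over the 31 genes and 0.24 over all genes tested, many of which are less abundant. Each gene was ranked by this SD among the 500 genes nearest to it in mean level. Of the members 13 lay above the 75th percentile of their neighbours, where 25.1% of all genes do.

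The highest percentiles belonged mostly to the low or inducible PPAR alpha targets. Pdk4 stood at percentile 99.4, Vnn1 at 98.8, Angptl4 and Cyp4a10 at 98.2, Acot1 at 98.0 and Oxct1 at 96.6. The coefficient of variation of Cyp4a10 was 50.9% on galactose and 67.8% on glucose, and its highest mouse exceeded its lowest 15.6-fold and 7.28-fold. Acot1 had 58.4% and 65.9%, and Pdk4 43.8% and 32.8%. The steady end held mitochondrial enzymes: Acadm at percentile 1.2 with 7.02% and 4.37%, Hadha at 9.2 with 8.16% and 7.66%, Hadhb at 17.2 with 9.21% and 6.37%, and Cpt1a at 21.2 with 9.31% and 7.16%. These percentiles describe the mice at hand and no test was made on them.

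**Figure D3:**
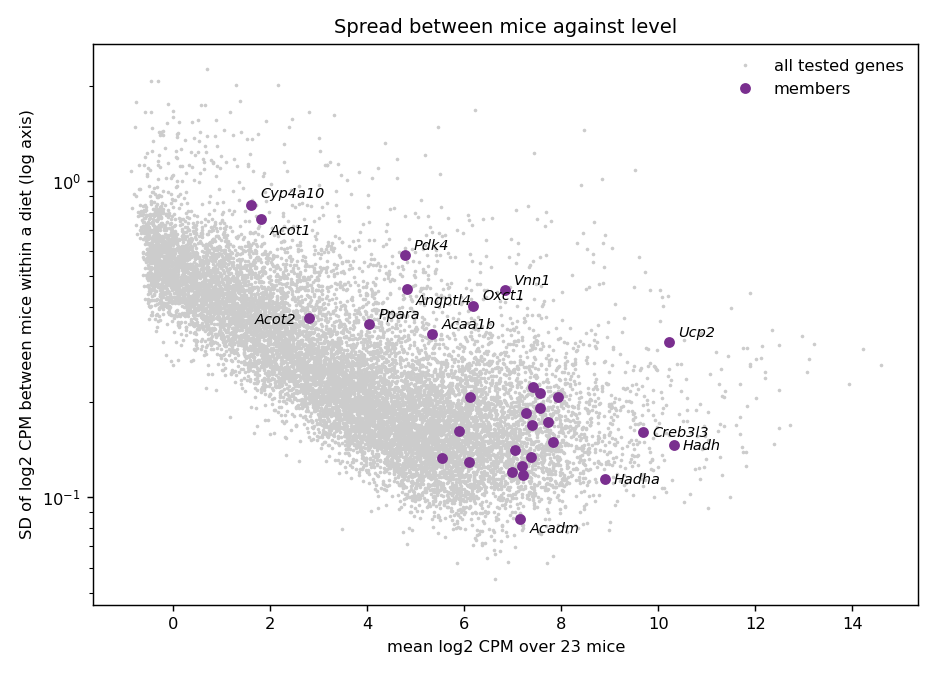
SD of log2 CPM between mice within a diet (y axis, log scale) against mean log2 CPM over 23 mice (x axis), with grey points for all 13405 tested genes and purple points for the 31 members. Cyp4a10, Acot1, Pdk4, Angptl4, Vnn1 and Ucp2 lie high for their level and Acadm lies at the lower edge.

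Levels of many members varied together across mice. With diet means taken out, 53 of the 465 pairs (11.4%) had a Pearson r past an adjusted p of 0.05 in a permutation test with 100000 resamples within diet, Benjamini-Hochberg over the 465 pairs. All 53 were positive and 0 negative. The median r over pairs was 0.23, against 0.018 over pairs of the 7732 genes with at least 10 CPM. An r of at least 0.6 was reached by 9.68% of member pairs, and by 2.75% of pairs of those genes. Acot1, Acot2 and Cyp4a10 have means below 10 CPM. Over pairs of all tested genes the median r was -0.003, and 1.55% reached 0.6. How many pairs outside the module would pass the permutation test was not counted. Left without galactose replicates 7 and 12 there were 27 called pairs, 26 of them among the 53. Pairs share libraries and genes, so they are not independent of each other.

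**Figure D4:**
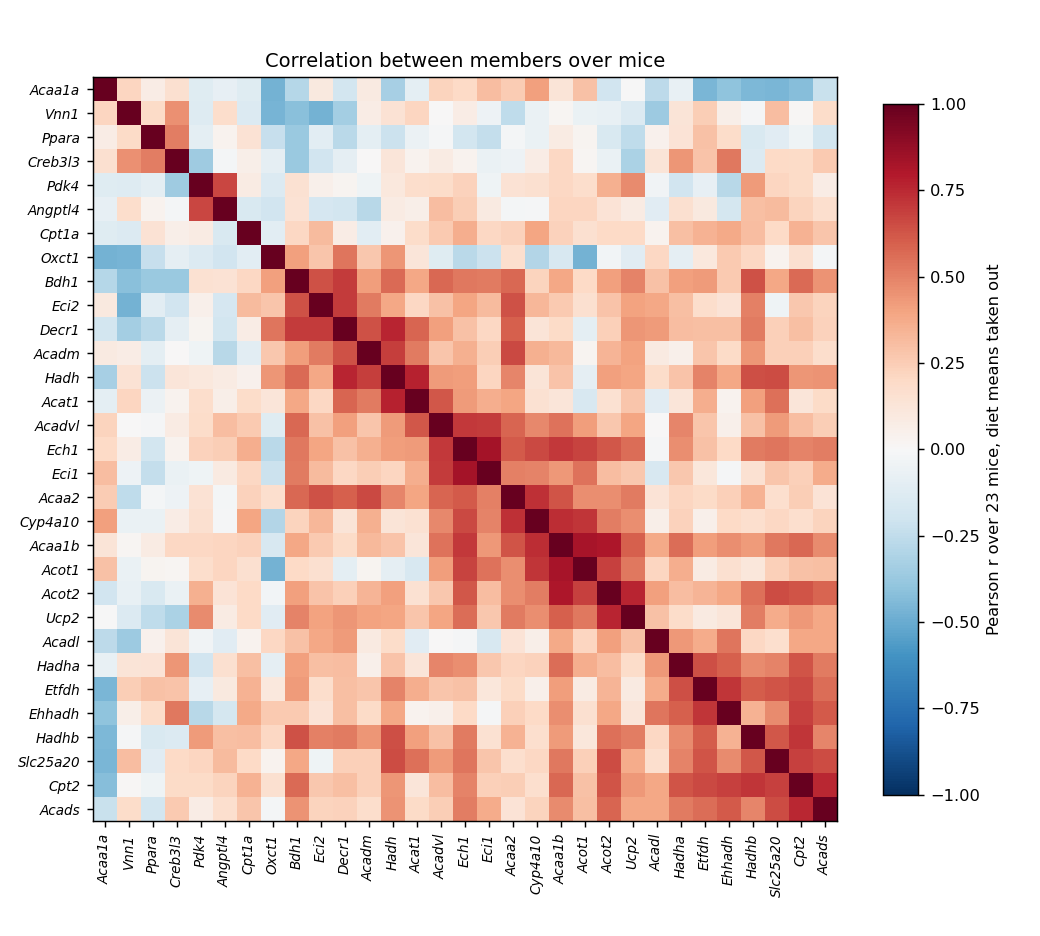
Pearson r between the 31 tested members over 23 mice with diet means taken out (colour, from -1 to 1), genes on both axes ordered by average-linkage clustering. A block of positive r joins the mitochondrial genes with Acaa1b, Acot1, Acot2 and Cyp4a10, and Pdk4 and Angptl4 form a pair of their own with r = 0.67.

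The closest pair was Ech1 and Eci1, with r = 0.84 (permutation p = 1e-05, the smallest the resamples can give, adjusted p = 0.0023) and rho = 0.84 (permutation p = 2e-05). It was 0.92 on galactose, 0.72 on glucose and 0.82 without the 2 farthest libraries. With the length slope of the libraries taken out r was 0.77. Acaa1b was tied to Acot1 with r = 0.83 (permutation p = 2e-05, adjusted p = 0.0031; rho = 0.77, permutation p = 1e-04) and to Acot2 with r = 0.81 (permutation p = 1e-05, adjusted p = 0.0023; rho = 0.84, permutation p = 1e-05). Without the 2 farthest libraries both values were 0.77. Hadh followed Acat1 with r = 0.77 (permutation p = 7e-05, adjusted p = 0.00465; rho = 0.76, permutation p = 1e-04) and Decr1 with r = 0.76 (permutation p = 3e-05, adjusted p = 0.00349; rho = 0.72, permutation p = 0.00034). Without the 2 farthest libraries these were 0.70 and 0.66.

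The mice behind the thioesterase and thiolase pairs can be named. For Acaa1b the highest were glucose replicate 7 at 65.6 CPM, galactose replicate 3 at 62.0 and glucose replicate 11 at 58.3, and for Acot1 glucose replicate 11 at 12.9 and glucose replicate 7 at 9.39. For Acot2 they were glucose replicate 7 at 10.7, glucose replicate 8 at 10.6 and glucose replicate 11 at 10.1, and for Cyp4a10 glucose replicate 11 at 11.8 and galactose replicate 3 at 5.89. Glucose replicate 10 had the lowest Acaa1b of all mice, at 27.2 CPM, with 2.38 CPM of Acot1 and 1.62 of Cyp4a10. High and low mice were found on both diets.

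Cyp4a10 had 4 called partners. They were Acaa1b (r = 0.74, rho = 0.83, permutation with adjusted p = 0.00465 for r), Acaa2 (r = 0.73, rho = 0.82, adjusted p = 0.00372), Acot1 (r = 0.71, rho = 0.61, adjusted p = 0.00764) and Ech1 (r = 0.66, rho = 0.66, adjusted p = 0.0125). Without the 2 farthest libraries the tie with Acot1 had r = 0.57 and missed the threshold (adjusted p = 0.119). It was not called with Pdk4 (r = 0.16, permutation p = 0.479, adjusted p = 0.669; rho = 0.27, permutation p = 0.22). Pdk4 had a single called partner, Angptl4, and Angptl4 had only Pdk4. Their r was 0.67 (permutation p = 0.00074, adjusted p = 0.0143) and rho 0.61 (permutation p = 0.0036, adjusted p = 0.0382). It was 0.55 without the 2 farthest libraries (adjusted p = 0.124), so the call rests in part on those mice. With the adipocyte score of the libraries taken out r was 0.73. That score is the mean log2 CPM of the 3 tested markers, Fabp4, Cidec and Lipe. Adipoq, Plin1 and Retn are not in it, so it cannot be read as the content of fat cells.

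Of the pairs of close copies, the thioesterases passed the test and the thiolases did not. Acot1 and Acot2 had r = 0.68 (permutation p = 0.00063, adjusted p = 0.0133; rho = 0.68, permutation p = 0.00065), and 0.61 without the 2 farthest libraries (adjusted p = 0.0641). Acaa1a and Acaa1b had r = 0.13 (permutation p = 0.586, adjusted p = 0.735; rho = 0.22, permutation p = 0.342). Ppara had 0 called partners. Its r was 0.51 with Creb3l3 (permutation p = 0.0160, adjusted p = 0.0941; rho = 0.46, permutation p = 0.0307) and 0.15 with Cpt1a (permutation p = 0.519, adjusted p = 0.695; rho = 0.18, permutation p = 0.400).

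Creb3l3, Cpt1a, Acadl, Acaa1a, Vnn1 and Oxct1 also had 0 called partners, while Cpt2 had 8 and Acaa2, Ech1, Acaa1b and Acot2 had 7 each. The lowest r values were those of Acot1 and Oxct1, Acaa1a and Oxct1, and Eci2 and Vnn1, each at -0.47, with permutation p of 0.0258, 0.0233 and 0.0206 and adjusted p of 0.127, 0.119 and 0.109. Their rho values were -0.39, -0.52 and -0.48, and none passed.

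A few mice held many of the highest values. Glucose replicate 9 was the highest of its diet in 11 of the 31 genes and glucose replicate 7 in 7. On galactose, replicate 3 was the highest in 10 and replicate 2 in 6. Galactose replicate 4 and glucose replicate 10 were the lowest of their diets in 7 each.

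**Figure D5:**
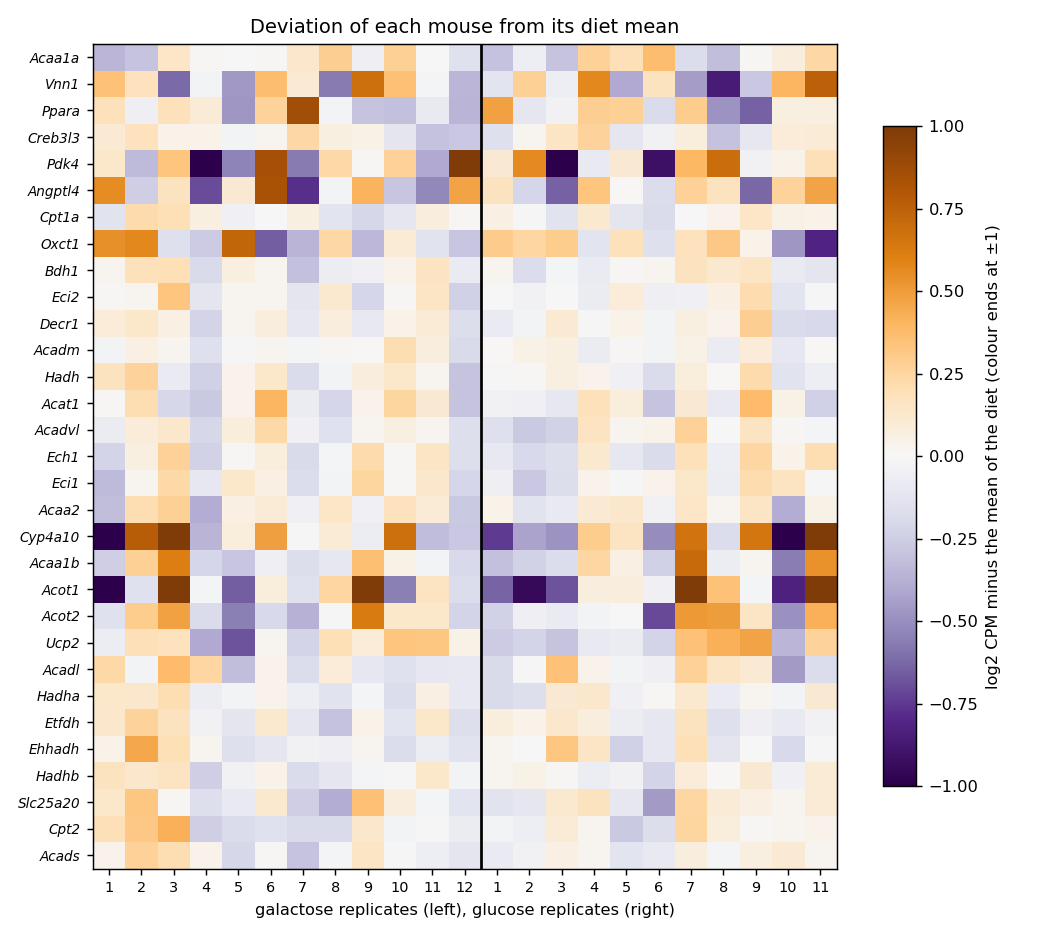
Deviation of log2 CPM of each mouse from the mean of its diet (colour, ends at -1 and 1) for the 31 members (rows, in the order of the correlation map) and 23 mice (columns, galactose left and glucose right of the line). Rows for Cyp4a10, Acot1, Pdk4, Angptl4, Vnn1 and Oxct1 carry the strong colours, and galactose replicates 2 and 3 and glucose replicate 7 are above their diet mean in most rows.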

How the data were processed

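STAR, HTSeq and the build GRCm39 are named in the submitters' processing notes, and their versions and the strand setting are not given in the sources at hand. The authors deposited raw counts of reads per gene, 1 table per mouse. The 5 rows that name no gene held 13.5% of reads and were left out. Symbols were matched by identifier for 52083 rows, which hold 99.8% of counts. In 121 pairs of libraries within a diet, chi-square per degree of freedom was 12.9 to 51.3, so none was a copy.

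Diets were compared with edgeR 4.0.16 (R 4.3.3): filterByExpr, TMM, quasi-likelihood F test with diet as the single term for 23 libraries, and Benjamini-Hochberg over 13405 genes. DESeq2 1.42.0 and limma 3.58.1 were alternatives, as were other scalings and filters, covariates for length slope, gut position and adipocyte markers, and leaving out each library. Log2 CPM used a prior count of 2. Transcript lengths are from an annotation of another build. The edgeR test was checked on simulated counts with 200 of 13405 genes changed, and the permutation test on random values with a planted pair. DESeq2 and limma were not checked on simulated data.

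All 32 members are named, and from each further list the 3 tested genes of smallest p. For correlations these are the 5 pairs of highest and 3 of lowest r and set pairs of related genes. Further partners and pairs were picked with their values known. Some genes that the rule takes, and the list of further ketone body genes, are left out of the text. The members and lists were chosen with earlier results of these data known.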

Additional observations from a re-analysis of the deposited data

How the results depend on the processing

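No paired analysis was possible because replicates were numbered by accession and no label links mice across diets. Under each of the 36 alternatives 0 members were called. Signs turned in 12 members, the largest of which differed by -0.15 (Ppara). With the length slope held, log2 differences became 0.15 for Ppara, 0.023 for Creb3l3, -0.0054 for Hadhb, -0.0053 for Hadh, -0.089 for Ech1, -0.030 for Eci1, -0.044 for Eci2 and -0.10 for Ucp2. Ucp2 also came to -0.0051 with upper-quartile scaling, -0.0076 with library totals, -0.00017 with at least 1 count in all, -0.019 with the adipocyte score and -0.0088 with the position score. Hadhb came to -0.00054 with library totals. Acaa1b came to 0.018 with limma-voom, and Acaa1b and Acaa2 to 0.035 and 0.0011 with quality weights. Without galactose replicates 7 and 12, Hadha, Acaa2 and Acaa1b came to 0.0084, 0.016 and 0.032. Leaving out each library in turn gave -0.028 to 0.011 for Hadha, -0.0096 to 0.027 for Hadhb, -0.046 to 0.015 for Acaa2, -0.0090 to 0.048 for Ech1, -0.0069 to 0.055 for Eci2, -0.075 to 0.083 for Acaa1b, -0.034 to 0.12 for Angptl4 and -0.028 to 0.060 for Ucp2. Called pairs of members numbered 27 without galactose replicates 7 and 12 and 31 without the 2 farthest libraries, against 53, and 51 to 59 under the other alternatives. The cause was not tested. Counts of 16 (Acot1) and 6 (Cyp4a10) in the lowest library limit those genes.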
